A study of Homo sapiens with 12 samples.

Results

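The 5 MEG3-OFF sublines of the NTU1 human embryonic stem cell (hESC) line, NTU1-5 to NTU1-9, were compared with each other, gene by gene. They made up 5 of the 12 arrays of the study, taken by their label alone, and every gene was read through 1 probe on Illumina HumanHT-12 bead arrays. Of 19951 genes with a probe, 11569 were detected on at least 1 of the 5 arrays and form the set described below. Next to the MEG3-OFF sublines, which lack MEG3, stood 4 MEG3-ON sublines of the same line, NTU1-1 to NTU1-4, which express it. The labels rate the neural differentiation of the MEG3-OFF sublines as worse and that of the MEG3-ON sublines as better. The remaining arrays held 2 samples of H9, another hESC line labelled MEG3-OFF, and 1 embryoid body (EB), the aggregate that hESCs form when they differentiate. The authors had assigned the sublines by a PCR measurement of MEG3 and had grown the hESCs undifferentiated on mouse embryonic fibroblast feeders in a serum-free medium for primate stem cells. Each subline was hybridised once and its passage is not given, so the spread between arrays holds biological and technical differences together and no test within the group was possible. All 12 arrays lay on 1 chip with each group in adjoining positions, so group and position cannot be told apart. Within the group NTU1-5 to NTU1-9 lay in the order of their numbers, so subline and position cannot be told apart either.

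MEG3 is a long noncoding RNA made from the maternal copy of the imprinted DLK1-DIO3 locus, and loss of its expression with gain of DNA methylation is a known form of epigenetic drift in cultured pluripotent cells. Imprinted genes are expressed from 1 parental copy only, so a single silencing event can turn them off. Cultured sublines of 1 line can also differ in silenced promoters, in the share of cells that have begun to differentiate and in the signals they received just before harvest.

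The label check came first. The log2 level of MEG3, a background-corrected and normalized signal on which 1 unit is a 2-fold difference, was 5.16 in NTU1-5, 5.37 in NTU1-6, 5.08 in NTU1-7, 6.30 in NTU1-8 and 4.97 in NTU1-9, against 13.15 to 14.12 on the 4 MEG3-ON arrays. Only NTU1-8 passed detection (a detection p-value under 0.01), so MEG3 was near background in this group and highest in NTU1-8. The hESC markers were present throughout: 6 of 6 with a probe were detected on every array. POU5F1, the central pluripotency factor also known as OCT4, lay between 12.34 and 12.67 on the 5 arrays, SOX2 between 11.90 and 12.47, and NANOG between 10.51 and 11.04. Of the 7 fibroblast markers 4 were detected in NTU1-5 and 3 in each other subline, with COL3A1, DCN and POSTN undetected on all 5 and COL1A1, COL1A2 and THY1 detected on all 5. The arrays detected 16878 to 17727 probes, and no pair had an identical raw value at any probe. Their median raw signals fell with position: 104 in NTU1-5, 100.5 in NTU1-6, 99.8 in NTU1-7, 96.1 in NTU1-8 and 89.3 in NTU1-9. The part of position or signal in the patterns below was not tested.

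Most genes varied little. The standard deviation (SD) over the 5 arrays had a median of 0.20 log2 units, against 0.19 for the same genes over the 4 MEG3-ON arrays, and the range from the lowest to the highest array had a median of 0.50. In 949 genes (8.2% of 11569) the range was at least 1 log2 unit, in 70 genes (0.605%) at least 2 and in 12 genes at least 3. Dim genes ranged more: when genes were ranked by level into 4 equal sets, 17.9% of the dimmest set had a range of at least 1, against 2.70% of the brightest. Of the 949 genes 481 were detected on all 5 arrays. On the deposited normalized signals, from which background was not subtracted and where differences of dim genes are therefore compressed, 257 genes had a range of at least 1 and 22 of at least 2, all 22 among the 70. In groups of 4, the MEG3-OFF arrays gave 504 to 840 such genes, depending on the array left out, and the 4 MEG3-ON arrays gave 460 among the same genes, of which 202 were also among the 949.

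NTU1-5 stood farthest from the rest. Its genes deviated from the mean of the other 4 arrays by a median of 0.22 log2 units, against 0.12 for NTU1-6, 0.15 for NTU1-7, 0.16 for NTU1-8 and 0.14 for NTU1-9. It was the highest array for 23.9% of genes and the lowest for 31.8%. Without it the genes with a range of at least 1 numbered 504 and those with a range of at least 2 numbered 45, against 632 and 45 without NTU1-8. Between pairs of MEG3-OFF arrays, 90 (NTU1-6 and NTU1-9) to 356 genes (NTU1-5 and NTU1-8) lay at least 1 unit apart. NTU1-5 was 103 genes apart from NTU1-6 but 315 from NTU1-7, 356 from NTU1-8 and 277 from NTU1-9. By the same count it was 221 genes apart from the MEG3-ON subline NTU1-2 and 235 from NTU1-1, fewer than from any of those 3 arrays of its own group, and 353 and 323 from NTU1-3 and NTU1-4. The first principal component of the 5 arrays held 41.0% of the variance, with NTU1-5 at 29.7 and the others between -15.4 and 5.71. The second component (27.3%) set NTU1-8 apart from NTU1-9, at 22.5 and -15.5, and the third (19.3%) set NTU1-7 apart from NTU1-9, at 19.8 and -14.6.

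**Figure D1:**
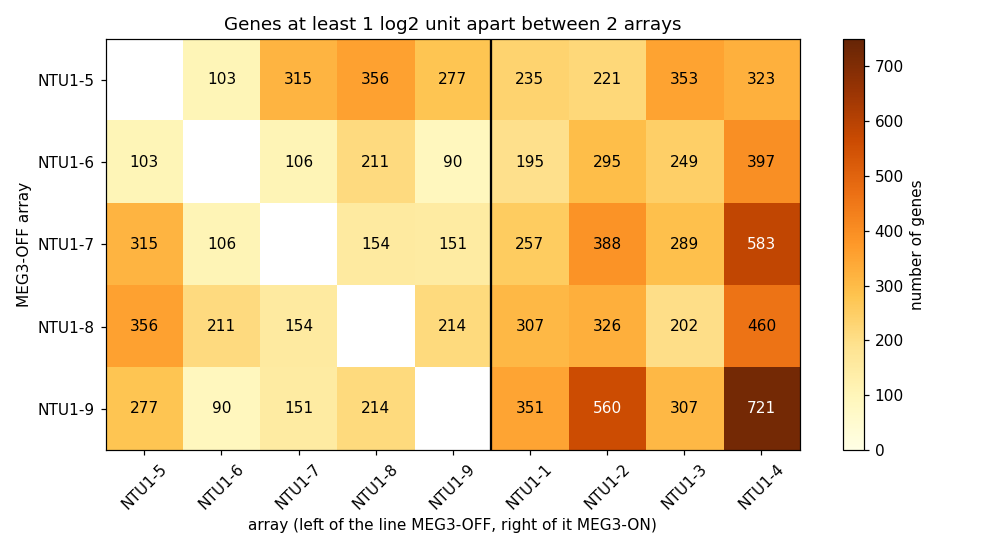
Number of genes at least 1 log2 unit apart between 2 arrays, of 11569 genes, for each MEG3-OFF array (vertical axis) against the other MEG3-OFF arrays (left of the line) and the MEG3-ON arrays (right of it). NTU1-5 is 315, 356 and 277 genes from NTU1-7, NTU1-8 and NTU1-9, and 235 and 221 from NTU1-1 and NTU1-2.

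Genes with a clear on and off state were few. A gene was counted as on in some sublines only where its probe was detected on 1 to 4 of the arrays and the lowest detected array lay at least 1 log2 unit above the highest undetected one. This held for 54 genes (0.467% of those detected), 9 of them with a gap of at least 2 units, and on the deposited normalized signals for 13, all among the 54. Of the 54 genes 14 were on in 1 subline, 13 in 2, 11 in 3 and 16 in 4, and they fell into 15 of the 30 possible patterns. On the 4 MEG3-ON arrays 28 of them were detected throughout, 13 nowhere and 13 on some arrays. The share of all genes detected on all 4 was not counted. Detection throughout a group was common: 9704 of the 11569 genes were detected on all 5 MEG3-OFF arrays.

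The most frequent pattern split NTU1-7 and NTU1-8 from NTU1-5, NTU1-6 and NTU1-9. In all 13 genes were on in NTU1-7 and NTU1-8 only, and 6 others were on in NTU1-5, NTU1-6 and NTU1-9 only. Of these 19 genes 16 were detected on all 4 MEG3-ON arrays, a share that was not counted over all genes. The 13 genes lay on 9 chromosomes, 4 of them on chromosome 9, where PSMD5 and CUTALP are neighbours. Of the 9704 genes detected on all 5 MEG3-OFF arrays 398 lay on chromosome 9. Chromosome 9 was named after its count was seen, and position was not tested. Promoters are shown for 5 genes of the first set, MTLN, H19, TUSC1, PSMD5 and DNAJC15, which the test of spread below also names, and for ZNF22 and MLKL, which were low in NTU1-8 only. The sequence table had no entry for NNAT and TRIM4. Each runs 5′ to 3′ for 300 bases, 250 before and 50 after the start that RefSeq gives on GRCh38.p14, with CpG dinucleotides, the sites of DNA methylation, in capitals.
MTLN (chr2:110212498-110212797, minus strand): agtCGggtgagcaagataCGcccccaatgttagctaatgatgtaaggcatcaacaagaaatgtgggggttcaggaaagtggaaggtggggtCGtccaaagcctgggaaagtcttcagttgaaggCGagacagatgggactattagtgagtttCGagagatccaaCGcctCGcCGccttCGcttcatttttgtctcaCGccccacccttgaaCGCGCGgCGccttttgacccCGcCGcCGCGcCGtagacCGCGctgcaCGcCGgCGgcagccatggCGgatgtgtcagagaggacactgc
H19 (chr11:2001217-2001516, minus strand): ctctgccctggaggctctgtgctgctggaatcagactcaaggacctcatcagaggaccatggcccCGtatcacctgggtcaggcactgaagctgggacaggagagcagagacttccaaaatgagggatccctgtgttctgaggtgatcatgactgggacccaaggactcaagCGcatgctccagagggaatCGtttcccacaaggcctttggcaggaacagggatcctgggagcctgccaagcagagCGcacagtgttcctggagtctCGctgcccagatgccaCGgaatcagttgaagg
TUSC1 (chr9:25678395-25678694, minus strand): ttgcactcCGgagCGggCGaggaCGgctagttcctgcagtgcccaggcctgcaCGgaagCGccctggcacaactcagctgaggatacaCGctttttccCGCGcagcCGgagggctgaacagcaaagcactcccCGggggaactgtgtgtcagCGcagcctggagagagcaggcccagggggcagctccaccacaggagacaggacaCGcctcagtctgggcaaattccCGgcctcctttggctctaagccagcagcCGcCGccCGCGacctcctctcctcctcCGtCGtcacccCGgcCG
PSMD5 (chr9:120842873-120843172, minus strand): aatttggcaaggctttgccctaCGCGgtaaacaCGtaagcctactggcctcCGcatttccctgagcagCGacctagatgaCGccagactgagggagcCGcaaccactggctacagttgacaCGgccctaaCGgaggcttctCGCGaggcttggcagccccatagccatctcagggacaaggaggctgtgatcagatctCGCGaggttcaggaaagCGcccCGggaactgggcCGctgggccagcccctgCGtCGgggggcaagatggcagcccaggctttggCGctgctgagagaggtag
DNAJC15 (chr13:43023336-43023635, plus strand): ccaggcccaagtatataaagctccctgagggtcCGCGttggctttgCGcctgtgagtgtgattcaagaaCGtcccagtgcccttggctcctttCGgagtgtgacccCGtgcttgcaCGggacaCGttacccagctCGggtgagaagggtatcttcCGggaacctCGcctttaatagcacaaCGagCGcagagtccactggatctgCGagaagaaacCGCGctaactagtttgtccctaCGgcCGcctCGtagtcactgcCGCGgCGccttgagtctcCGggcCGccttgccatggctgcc
ZNF22 (chr10:45000673-45000972, plus strand): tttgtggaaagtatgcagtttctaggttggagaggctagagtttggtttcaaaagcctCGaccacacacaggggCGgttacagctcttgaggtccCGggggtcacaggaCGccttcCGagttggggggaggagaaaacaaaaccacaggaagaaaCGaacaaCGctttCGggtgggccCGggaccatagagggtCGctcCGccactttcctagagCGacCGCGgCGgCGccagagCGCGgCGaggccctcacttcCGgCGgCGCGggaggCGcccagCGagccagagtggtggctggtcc
MLKL (chr16:74700813-74701112, minus strand): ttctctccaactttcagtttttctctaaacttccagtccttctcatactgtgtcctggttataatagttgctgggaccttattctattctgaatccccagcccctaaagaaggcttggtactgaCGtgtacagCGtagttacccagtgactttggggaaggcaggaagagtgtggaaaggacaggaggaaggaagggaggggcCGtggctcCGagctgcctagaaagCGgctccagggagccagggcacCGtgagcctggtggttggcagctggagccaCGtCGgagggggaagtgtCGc
These windows held 25 CpG in MTLN, 6 in H19, 22 in TUSC1, 19 in PSMD5, 24 in DNAJC15, 25 in ZNF22 and 9 in MLKL, against a median of 26 in the 9281 detected genes with a promoter sequence. Of the 37 genes on in some sublines only that could be matched, 75.7% had at least 10 CpG, against 88.4% of all detected genes. The arrays did not measure methylation, and the letters say nothing of the state of these sites.

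NNAT, which encodes neuronatin, a small membrane protein of developing brain made from the paternal copy only, showed the widest range of any gene. Its log2 level was 11.80 in NTU1-7 and 11.25 in NTU1-8, against 5.36 in NTU1-5, 5.23 in NTU1-6 and 5.54 in NTU1-9, where it was not detected. NTU1-7 and NTU1-8 thus lay close to the 4 MEG3-ON arrays (11.92 to 12.57), and the lower of the pair was at least 42.9-fold above background in the other sublines. A further NNAT probe split the arrays alike, at 8.80 and 7.98 in NTU1-7 and NTU1-8 and at 4.46 to 4.51 in the others. H9 carried it at 6.33 and 10.10 on its 2 arrays. BLCAP, the gene that NNAT lies within and which was picked for that place after its values were seen, was detected in every subline with a range of 0.98.

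MTLN, a mitochondrial microprotein gene, read 9.26 in NTU1-7 and 8.93 in NTU1-8, against 5.17, 4.98 and 4.89 in NTU1-5, NTU1-6 and NTU1-9. NTU1-7 lay within the MEG3-ON values (9.13 to 9.82) and NTU1-8 just below them, and the pair was at least 8.57-fold above background in the other 3. H19, the maternally expressed noncoding RNA of the IGF2 locus, read 6.78 and 6.75 in NTU1-7 and NTU1-8, against 4.48, 4.51 and 4.51 in the others. On MEG3-ON arrays H19 lay between 6.44 and 6.57. It was undetected in the other 3 MEG3-OFF sublines, so the bound there was only at least 1.89-fold. TUSC1, a candidate tumour suppressor, read 7.07 and 7.10 in the pair and 4.61 to 4.76 in the other 3. DNAJC15, a mitochondrial co-chaperone, read 7.09 and 6.81 against 5.07 to 5.18, and PSMD5, a chaperone of proteasome assembly, 7.49 and 7.06 against 4.85 to 5.13. OXCT1, the enzyme that opens the use of ketone bodies, read 6.70 and 6.59 against 4.76 to 4.88. By the same bound the pair was at least 2.36-fold above background for TUSC1 and PSMD5, 1.97-fold for DNAJC15 and 1.69-fold for OXCT1. These genes were all detected on every MEG3-ON array. CYP4F22, a fatty acid hydroxylase known from skin, did not follow them: it read 7.42 in NTU1-7 and 8.04 in NTU1-8 against 5.29 to 5.56 in the others, and was detected on 1 of 4 MEG3-ON arrays (4.51 to 5.90). The pseudogene LSP1P5 was on in the same pair and on no MEG3-ON array.

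The opposite split was led by TRIM4, a gene of the tripartite-motif ubiquitin ligase family. It read 4.71 in NTU1-7 and 4.66 in NTU1-8, undetected in both, against 7.96, 8.10 and 8.30 in NTU1-5, NTU1-6 and NTU1-9 and 8.33 to 9.06 on MEG3-ON arrays. The 3 sublines with TRIM4 were at least 4.10-fold above background in the other pair. ACOT4, a peroxisomal acyl-CoA thioesterase, followed with 5.13 and 4.97 in NTU1-7 and NTU1-8 against 7.10 to 7.23 in the others. Its relative ACOT1 read 5.52 and 4.60 against 6.55 to 6.86, and ACOT2 was off in NTU1-8 only (5.05 against 6.40 to 7.25); these paralogs lie together on chromosome 14 and their probes may share signal. PUS7L, a pseudouridine synthase, read 5.05 and 4.81 against 6.60 to 7.05, and PTCHD1, a membrane protein with a patched domain, 4.78 and 5.08 against 6.20 to 6.87. By the same bound the 3 sublines were at least 2.25-fold above background for ACOT4, 1.53-fold for ACOT1, 1.59-fold for PUS7L and 1.21-fold for PTCHD1. NTU1-7 and NTU1-8 therefore had genes on that the other 3 sublines had off, and the reverse.

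Single sublines were also read against the other 4. NTU1-5 lay at least 1 log2 unit above every other MEG3-OFF array for 16 genes (0.138%) and below for 2 (0.0173%). NTU1-8 lay above for 4 (0.0346%) and below for 21 (0.182%), the most in 1 direction. NTU1-9 lay above for 4 and below for 7 (0.0605%), NTU1-7 above for 6 (0.0519%) and below for 1 (0.00864%), and NTU1-6 above for 1 and below for 1. In all 63 such readings were counted, so the array farthest from the rest over all genes, NTU1-5, was not the one with most genes outside the others; the order of these 2 arrays turned where the arrays were scaled to 1 median without quantile normalization (32 genes for NTU1-5 and 27 for NTU1-8) and without NTU1-6 (46 and 30). The NTU1-5 count was also 37 without NTU1-7 and 31 without NTU1-8, and the NTU1-8 count was 65 without NTU1-7 and 51 without NTU1-9. Without NTU1-8 the counts were 37 for NTU1-7 and 33 for NTU1-9, and without NTU1-5 that for NTU1-7 was 14.

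**Figure D2:**
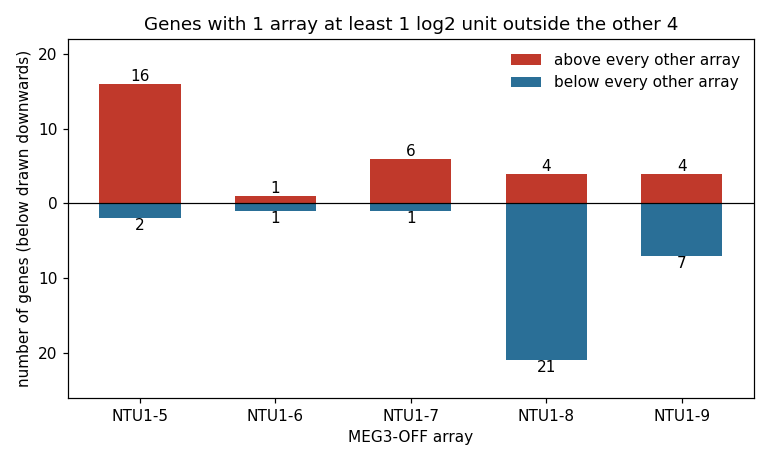
Number of genes (vertical axis) for which each MEG3-OFF array (horizontal axis) lies at least 1 log2 unit above every other MEG3-OFF array (upward bars) or below every one (downward bars). NTU1-5 has 16 genes above and NTU1-8 has 21 below.

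In NTU1-5 the gene farthest above the others was HAND1, a transcription factor of heart, lateral mesoderm and extraembryonic tissue. It read 9.51 in NTU1-5, against 6.96 in NTU1-6 and 7.12 in NTU1-7, and was undetected in NTU1-8 (4.71) and NTU1-9 (4.65). EPAS1, the hypoxia-inducible factor HIF-2 alpha, was on in NTU1-5 only, at 7.14 against 4.53 to 4.94 in the other sublines, at least 2.32-fold above background there, and was undetected on all MEG3-ON and H9 arrays. FOSB, an early-response transcription factor, read 10.37 against 6.53 to 8.50, and HAPLN1, a protein that links hyaluronan to proteoglycans, 7.22 against 4.84 to 5.74. BMP2, a growth factor of mesoderm and bone, read 7.70 against 5.57 to 6.58, and BHLHE40, a clock and hypoxia-responsive repressor, 8.79 against 6.79 to 7.66. The 2 genes below all others were DMXL1 and FAM200C, the second at 5.34 against 6.73 to 7.31.

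NTU1-8 was set apart mainly by low values. ZNF22, a zinc finger gene whose promoter is printed above, read 6.97 in NTU1-8, against 10.28, 10.22, 9.48 and 10.11 in NTU1-5, NTU1-6, NTU1-7 and NTU1-9 and 9.66 to 10.39 on MEG3-ON arrays. MLKL, the effector of necroptosis, read 6.24 against 8.23 to 8.90, and PDE4B, a cyclic AMP phosphodiesterase, 5.37 against 7.24 to 8.07. MX1, an interferon-induced GTPase, read 6.97 in NTU1-8 against 8.69 to 9.44, and CGAS, the sensor of cytosolic DNA, 4.59 against 6.05 to 6.47. Both take part in innate immunity, and of 16 other detected genes of interferon response and antigen presentation 2, IFI6 and HLA-C, had a range of at least 1 (12.5%, near the 8.2% of all genes). PCDHB5, a clustered protocadherin, read 6.15 against 7.44 to 9.20, SLC30A1, a zinc exporter, 6.63 against 8.04 to 9.70, and DNAJA4, a heat shock co-chaperone, 5.79 against 7.17 to 8.05. Higher in NTU1-8 than in any other subline were GDF15, a stress-induced cytokine (8.11 against 5.71 to 6.71), PRPH, the neuronal filament peripherin (7.97 against 5.54 to 6.67), and VWF, von Willebrand factor (7.00 against 4.92 to 5.71).

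NTU1-9 lay below all others for 7 genes, among them the small nucleolar RNAs SNORD34, SNORA73A and SNORD10. Other small nucleolar RNAs also had a range of at least 1, and SNORD30 lay above all others in NTU1-5. The share of small nucleolar RNAs over all genes was not counted. Of the rest DLX5, a homeobox gene of skeleton and placodes, read 4.71 in NTU1-9 against 6.26 to 7.44 in the others, SOX21, a neural progenitor factor, 9.33 against 10.63 to 11.82, and IRX5, an Iroquois homeobox gene, 4.90 against 6.05 to 6.95. CDH6, a cadherin of kidney and neural crest, read 6.06 against 7.26 to 8.10. Above the others in NTU1-9 stood RAB17, an epithelial trafficking GTPase (10.26 against 8.20 to 8.74), MMP10, a matrix metalloproteinase (6.44 against 4.95 to 5.08), and HOXC8, a posterior homeobox gene (6.84 against 4.98 to 5.66). NTU1-7 had the highest reading of 2 histone genes, H2BC8 (6.75 against 4.91 to 5.26) and H2BC11 (6.44 against 4.93 to 5.36), and of CXCL5, a chemokine (8.99 against 7.24 to 7.60). The list of 13 detected replication-dependent histone genes held both H2BC8 and H2BC11. These were detected in NTU1-7 only and so entered the list through it. Of the 13 genes, with these included, 12 were highest in NTU1-7 and 5 had a range of at least 1. Over all genes NTU1-7 was highest for 19.4%, and 8.2% had such a range. NKX3-2, a homeobox gene of cartilage, read 7.35 in NTU1-7 against 4.78 to 6.21.

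The 70 genes with a range of at least 2 log2 units were sorted by the arrays that lay above each gene's largest gap. The largest group, 15 genes, was higher in NTU1-5, NTU1-6 and NTU1-7 than in NTU1-8 and NTU1-9. The second, 11 genes, was the NTU1-7 and NTU1-8 pattern led by NNAT. In 10 genes NTU1-5 alone stood above the gap, in 10 NTU1-8 stood below, in 7 NTU1-8 stood above, in 5 NTU1-9 stood below and in 5 NTU1-7 and NTU1-8 lay below. All 15 genes of the first group also had a range of at least 1 on the MEG3-ON arrays, against 2 of 11 in the NNAT group and 0 of 5 in the TRIM4 group. The first group thus held genes that varied in both kinds of subline. All 70 genes had been picked for a wide range on the MEG3-OFF arrays. A smaller range of the NNAT and TRIM4 groups on the MEG3-ON arrays therefore follows in part from the selection. Over all 11569 genes 3.98% had a range of at least 1 on the MEG3-ON arrays.

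**Figure D3:**
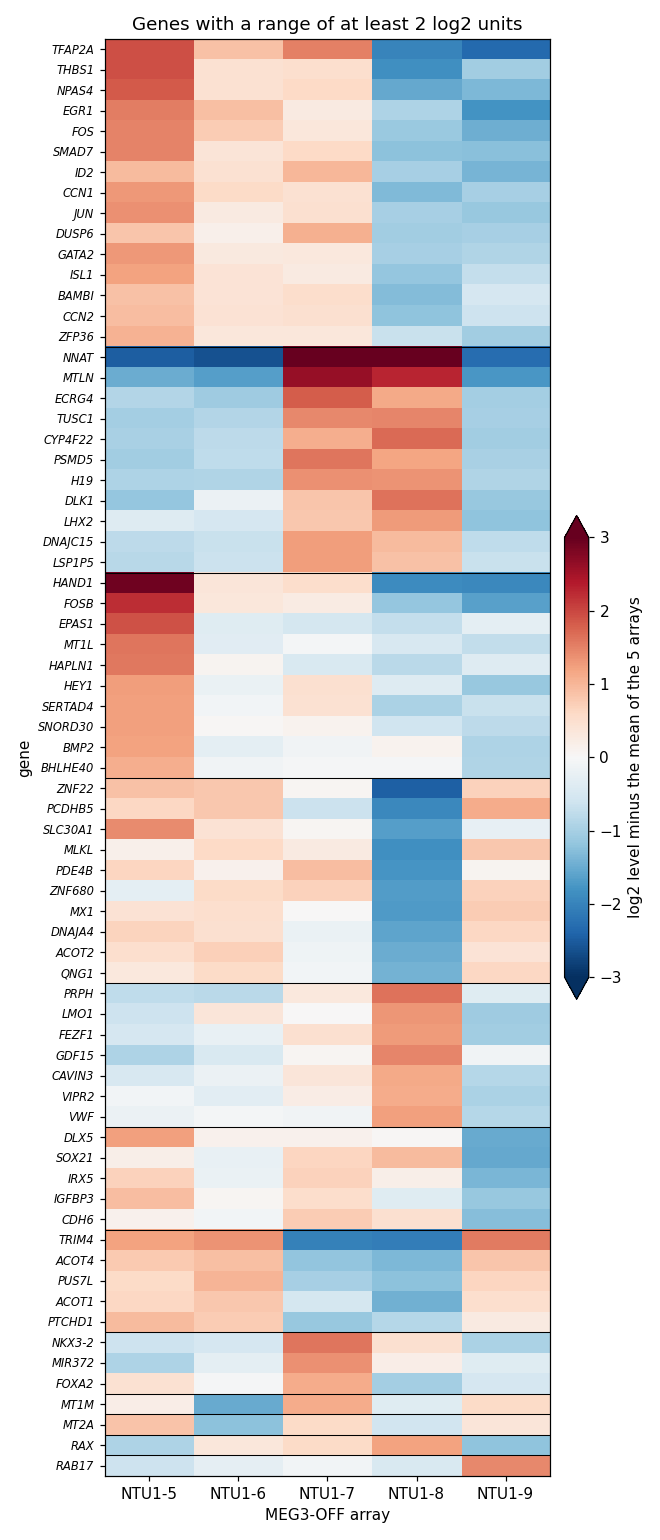
Log2 level minus the mean of the 5 arrays (colour, from blue below to red above, limited to 3 units either side) of the 70 genes with a range of at least 2 log2 units (rows) on the 5 MEG3-OFF arrays (columns). Lines separate groups of genes by the arrays above the largest gap; the first group of 15 is high in NTU1-5, NTU1-6 and NTU1-7, and the second of 11 in NTU1-7 and NTU1-8.

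The first group held mainly 2 kinds of gene. Immediate-early genes are transcribed within minutes of a growth factor or a mechanical disturbance and decay as fast. EGR1, a zinc finger factor of this class, read 12.55 in NTU1-5, 11.93 in NTU1-6 and 11.27 in NTU1-7, against 10.09 in NTU1-8 and 9.23 in NTU1-9. FOS, a partner in the AP-1 factor, read 11.77, 11.02 and 10.61 in NTU1-5, NTU1-6 and NTU1-7, against 9.16 and 8.80 in NTU1-8 and NTU1-9. The same genes spread further among MEG3-ON sublines, where EGR1 ran from 7.33 to 12.49 and FOS from 5.46 to 11.80, both lowest in NTU1-3. NPAS4, an activity-dependent factor, read 9.08 in NTU1-5 against 5.71 in NTU1-8. Of 19 detected genes of this class 16 had a range of at least 1, and 16 of the 19 also did on MEG3-ON arrays. Over all genes these shares were 8.2% and 3.98%. The mean level of the list was 10.04, 9.30, 9.45, 8.32 and 8.23 in NTU1-5 to NTU1-9. The list was drawn up after its leading genes were seen, so its counts describe and support nothing further.

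The other kind were genes of bone morphogenetic protein (BMP) signalling, which drives hESCs toward amnion, trophoblast and mesoderm. TFAP2A, an early factor of surface ectoderm, amnion and neural crest, read 9.08 in NTU1-5, 8.03 in NTU1-6 and 8.65 in NTU1-7, against 5.18 in NTU1-8 and 4.82 in NTU1-9, where it was undetected. The first 3 sublines were at least 4.48-fold above background there, and lay within the MEG3-ON values of 6.57 to 10.20. Of 2 further TFAP2A probes 1 split the arrays alike and 1 did not. ID2, a direct BMP target that blocks differentiation factors, read 12.10, 11.59 and 12.14 in NTU1-5, NTU1-6 and NTU1-7 against 10.15 and 9.74 in NTU1-8 and NTU1-9. SMAD7, the inhibitor that the pathway induces on itself, read 9.77, 8.66 and 8.88 against 7.04 and 7.01. ISL1, a factor of amnion and heart progenitors, read 8.22, 7.40 and 7.26 against 5.84 and 6.28, and GATA2, a trophoblast and blood factor, 6.87, 5.87 and 5.89 against 4.59 and 4.68. Of 18 detected genes of the pathway, a list also drawn up after its leading genes were seen, 13 had a range of at least 1, and 12 did on MEG3-ON arrays. Over all genes these shares were 8.2% and 3.98%. The members with a smaller range on MEG3-OFF arrays were ID1 (0.96), MSX1 (0.95), MSX2 (0.94), BMP7 (0.77) and SMAD6 (0.68). The list means were 8.99, 8.27, 8.40, 7.36 and 7.27 in NTU1-5 to NTU1-9, and 7.34 to 8.96 on the MEG3-ON arrays.

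Lineage markers were read beside these genes. The list of amnion and trophoblast genes, TFAP2A, ISL1 and GATA2 among its 14 detected members, had 8 with a range of at least 1, against 8.2% of all genes, and a median range of 1.25 against 0.50. Its mean was 7.64 in NTU1-5, 7.03 in NTU1-6, 7.09 in NTU1-7, 6.59 in NTU1-8 and 6.5 in NTU1-9. Of the 14 genes 10 were highest in NTU1-5, against 23.9% of all genes. GATA3, CGA and GABRP were detected in NTU1-5 only and so entered the list through it. Their being highest there was set by the filter and supports nothing. Without NTU1-5, 4 members had a range of at least 1, against 4.41% of all genes. Of 9 detected primitive streak and mesoderm genes 6 (66.7%) had a range of at least 1 and 7 were highest in NTU1-5, against 8.2% and 23.9% of all genes. HAND1, BMP4, MSX1 and MSX2 belong to this list and to the BMP list above, so the 2 lists are not separate. Of the 6 primitive streak and mesoderm markers used to name cells, TBXT, MIXL1, GSC and MESP1 were undetected on all 5 arrays, HAND1 was detected on 3 and EOMES on 2 (6.55 in NTU1-5 and 5.99 in NTU1-7). Of the 6 endoderm markers, SOX17, GATA4, GATA6 and TTR were undetected on all 5, FOXA2 was detected on 2 and AFP on all 5 (7.19 to 8.16). Of the 5 amnion and trophoblast markers used in the same way, 3 were detected in NTU1-5 (TFAP2A, GATA3 and CGA), 1 each in NTU1-6, NTU1-7 and NTU1-8, and 0 in NTU1-9, and VTCN1 was undetected on all 5. In whole cultures a larger share of cells of such a type and more RNA per cell cannot be told apart.

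Neuroectoderm and neural progenitor genes ran differently. Of 17 detected members 12 had a range of at least 1 (70.6%, against 8.2% of all genes), with a median range of 1.17, and 10 did without NTU1-5 (4.41% of all genes). The mean of the list was 8.24 in NTU1-5, 8.23 in NTU1-6, 8.65 in NTU1-7, 8.79 in NTU1-8 and 7.58 in NTU1-9, all below the MEG3-ON arrays (9.28 to 9.66). NTU1-9 was the lowest for 15 of the 17 and NTU1-8 the highest for 11, against 16.4% and 23.2% of all genes. LHX2, a LIM homeobox factor of forebrain and eye, was on in NTU1-7 (6.73) and NTU1-8 (7.19) and undetected in NTU1-5 (5.53), NTU1-6 (5.41) and NTU1-9 (4.70), against 7.91 to 9.27 on MEG3-ON arrays. RAX, the eye-field homeobox factor, was on in NTU1-6 (6.40), NTU1-7 (6.63) and NTU1-8 (7.27) but not in NTU1-5 (5.13) or NTU1-9 (4.84). LMO1, a LIM-only transcription cofactor, peaked in NTU1-8 (8.02) and was lowest in NTU1-9 (5.62), and FEZF1, a forebrain repressor, did the same at 7.53 and 5.20. The sublines thus carried these genes at unequal levels. Of the 6 neural progenitor markers used to name cells, LHX2 and RAX among them, PAX6, SIX3 and SOX1 were undetected in all 5 sublines. FABP7, a fatty acid-binding protein of radial glia, was detected in all 5 and ran the other way, at 6.76 in NTU1-5 and 6.85 in NTU1-6 against 6.25 in NTU1-7, 5.90 in NTU1-8 and 5.85 in NTU1-9.

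DLK1, the paternally expressed ligand-like gene that gives the MEG3 locus its name, was also highest in NTU1-8. It read 8.16 in NTU1-5, 9.15 in NTU1-6, 10.13 in NTU1-7, 10.94 in NTU1-8 and 8.18 in NTU1-9, so NTU1-8 reached the MEG3-ON values (10.68 to 11.19) with MEG3 at 6.30. DIO3, the thyroid hormone deiodinase at the far end of the locus, was low throughout, from 5.20 to 6.32, and also highest in NTU1-8. Among 26 other detected imprinted genes NNAT, H19 and ZNF597 had a range of at least 1 (11.5%, near the 8.2% of all genes), ZNF597 at 5.29 and 5.28 in NTU1-7 and NTU1-8 against 5.93 to 6.31 in the others.

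**Figure D4:**
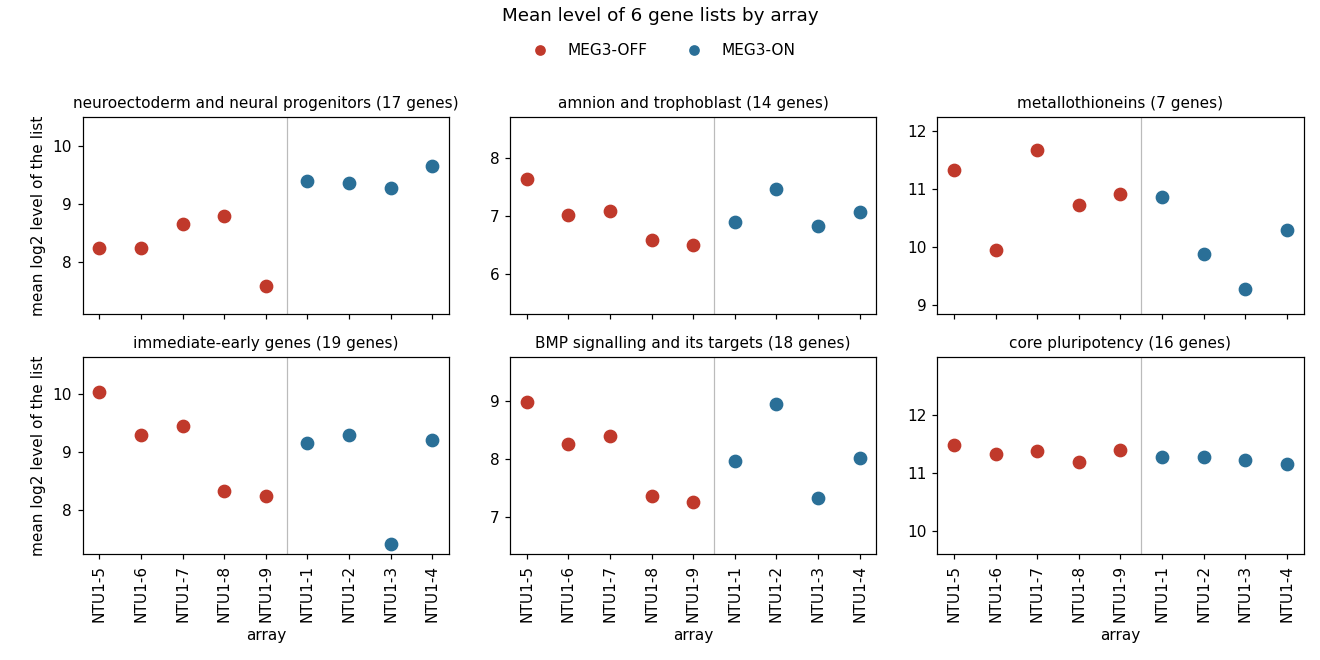
Mean log2 level (vertical axis) of 6 gene lists, 1 panel each, on the 5 MEG3-OFF and 4 MEG3-ON arrays (horizontal axis); each point is 1 array and every panel spans the same number of units. Among MEG3-OFF arrays the immediate-early and BMP lists are lowest in NTU1-8 and NTU1-9, the neuroectoderm list is lowest in NTU1-9 and the metallothioneins are lowest in NTU1-6.

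Metallothioneins, small proteins that bind zinc and copper and are induced by them, varied more than any other list by share. All 7 detected members of the list had a range of at least 1, on the MEG3-OFF and on the MEG3-ON arrays (8.2% and 3.98% of all genes). All 7 were lowest in NTU1-6, against 13.4% of all genes. MT2A read 8.89 in NTU1-6 against 10.98, 10.69, 9.54 and 10.49 in NTU1-5, NTU1-7, NTU1-8 and NTU1-9. MT1M was undetected in NTU1-6 (5.71) and ran from 6.86 to 8.33 in the others. MT1L, of the same cluster but not in the list, ran differently. It was on in NTU1-5 only (7.31), lowest in NTU1-9 (4.95) and undetected on all MEG3-ON arrays (4.72 to 5.13). The genes lie in 1 cluster with near-identical coding sequence, so their probes may share signal. The zinc exporter SLC30A1 read 8.71 in NTU1-6 and had its lowest value in NTU1-8. Zinc as a cause of these differences was not tested.

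Some lists not described so far also lay above the 8.2% of all genes at a range of at least 1. They were neural crest (5 of 9, 55.6%), germline and cancer-testis (4 of 9, 44.4%) and NODAL and LEFTY signalling (5 of 12, 41.7%). Endoderm (2 of 5, 40%), neurons (6 of 18, 33.3%) and WNT ligands and antagonists (2 of 9, 22.2%) did so too. Several further lists were near or below the share of all genes. Of 16 detected core pluripotency genes 1 had a range of at least 1 (6.25%, near the 8.2% of all genes). This was FOXD3, a forkhead factor, reading 6.87 in NTU1-8 against 7.45 to 8.01 in the other sublines. No member passed that range among 13 detected genes of the early embryo and naive state, 21 of cholesterol and fatty acid synthesis, 20 of DNA methylation and chromatin, 18 zinc finger genes of chromosome 19 or 13 genes of 20q11.21, a segment often gained in cultured hESCs. Lists of this size hold 1 or 2 such genes at the share of all genes. In 30 cell cycle genes 2 did (6.67%). Hypoxia and glycolysis genes lay between, with 7 of 25 (28%) at a range of at least 1 and 13 highest in NTU1-5 (23.9% of all genes). Among them HK2, the hexokinase that commits glucose to glycolysis, read 10.30 in NTU1-5 against 8.48 to 9.34, and LDHA, the lactate dehydrogenase, 13.92 against 12.73 to 13.39. In NODAL signalling, which maintains pluripotency, LEFTY1, its secreted inhibitor, was lowest in NTU1-6 (9.62), intermediate in NTU1-7 (10.31), NTU1-8 (10.40) and NTU1-9 (10.80), and highest in NTU1-5, a range of 1.38.

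Shifts of whole chromosomes were small. The median gene of a chromosome, set against the mean of the other 4 arrays, lay lowest for chromosome 19 in NTU1-5, at -0.14 log2 units, and highest for the same chromosome in NTU1-8, at 0.11. Over all genes the same difference also moved with the base content of promoters, its median running from -0.03 in the set of genes with the lowest GC to -0.06 in that with the highest in NTU1-5, and from -0.01 to 0.04 in NTU1-8. The part of GC content in the chromosome values was not tested.

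Whether MEG3-OFF sublines spread more than MEG3-ON sublines was the one comparison with replicates on both sides. Absolute deviations from each group's mean were compared with limma over the 10772 genes that 4 or more of the 9 NTU1 arrays detected. The spread was larger in MEG3-OFF for 10 genes (0.0928%) and smaller for 2 (0.0186%) at an adjusted p under 0.05, and 456 and 417 genes had an unadjusted p under 0.05. The 10 genes were H19 and NNAT (adjusted p = 0.00385 each), TUSC1 and MTLN (0.00579 each), TRIM4 (0.00977), PSMD5 (0.0183), DNAJC15 (0.0220), POLR3K (0.0287), ACOT4 (0.0383) and PUS7L (0.0481). All 10 split NTU1-7 and NTU1-8 from the other sublines, POLR3K, a subunit of RNA polymerase III, at 9.31 and 9.37 in the pair against 8.19 to 8.29. In a split of this shape all arrays of the group deviate from their mean by similar amounts, which a test of absolute deviations favours. The shared pattern is therefore partly set by the test and is no result of its own. Genes detected on fewer than 4 of the 9 arrays, such as CYP4F22 and EPAS1, were not tested. The 2 with a smaller spread were ECHDC3 (0.0481) and KHDRBS3 (0.00385), an RNA-binding splicing factor, which lay between 9.64 and 9.95 on MEG3-OFF arrays and between 6.82 and 8.35 on MEG3-ON arrays. EGR1 (adjusted p = 0.714), FOS (0.649), HAND1 (0.868) and TFAP2A (0.670) did not pass. DNAJC15, ACOT4 and PUS7L were not called on the deposited normalized signals (adjusted p = 0.0797, 0.0797 and 0.0812) or with an offset of 50 added in place of 16 (0.0548, 0.0638 and 0.0731), which each left 7 genes larger, and PUS7L was not called with a detection p under 0.05 (0.0506). The calls depended on the measure of spread: squared deviations called 0 genes larger and 0 smaller, as did limma with its trend and robust settings. Without NTU1-7 the larger calls numbered 2 and without NTU1-8 1, but 37 without NTU1-5, 20 without NTU1-6 and 23 without NTU1-9, and leaving out a MEG3-ON array gave 3 to 5. In simulated data the test made more false calls than its threshold allows.

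Further probes of the same genes gave a check within the arrays. The genes with a range of at least 2 had 13 other detected probes, of which 8 had the same highest and 10 the same lowest array. For genes with a range of at least 1 the highest array was the same in 57.1% of other probes, against 35.9% for genes with a smaller range. Of 7 other probes of 6 genes on in some sublines only, 5 had the same arrays on top. Their gap was 3.47 for NNAT and 1.36 for TFAP2A. It was under 1 unit for PDE4B (0.85), SORBS2 (0.69) and IRX5 (0.33). MTLN, H19, TUSC1, PSMD5, DNAJC15 and TRIM4 were not among the 6 genes, so each of them rests on 1 probe.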

How the data were processed

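Total RNA of 12 samples was hybridised to Illumina HumanHT-12 4.0 arrays. The authors deposited raw intensity values per probe, not background-subtracted or scaled, with detection p-values against negative control beads. They also deposited normalized intensity values, read into Partek and quantile normalized after log transformation, which were used as an alternative on a log2 scale. For the raw values, the exporting software was not given in the sources read.

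Raw intensities were background-corrected (normexp on the detection p-values), given an offset of 16, quantile normalized over the 12 arrays and taken to log2 with neqc of limma 3.58.1 (R 4.3.3, data.table version 1.17.8). Of 47230 probes 30113 had 1 gene symbol, 8 several and 17109 none, and 30074 were matched to RefSeq. Of 19951 genes 6659 had more than 1 probe, and the probe with the highest mean over the 12 arrays was taken. Detection meant p under 0.01. Counts, lists and figures were made in Python 3.11.15 with pandas 2.3.3 and matplotlib 3.10.9, and promoters came from RefSeq (GRCh38.p14). "At least N-fold" sets the lowest detected array over the highest, among undetected arrays, of the lowest signal of any detected probe and the probe's own value.

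Named genes were the 25 with the largest SD, the 20 on in some sublines only with the largest gap, the 6 farthest above and below all others on each array, the 10 lowest adjusted p of spread, and up to 4 members per list with a range of at least 1, with POU5F1, SOX2, NANOG and MEG3 always. XIST, TSIX and Y-linked genes were left out. Other genes named were chosen after their values were seen. Spread was compared between MEG3-OFF and MEG3-ON by limma (lmFit, eBayes) on absolute deviations from the group mean, scaled for group size, with Benjamini-Hochberg adjustment at 0.05, and the test was run on simulated data. The genes, lists and groups were chosen with earlier results of these data known. The number of arrays limits the precision. Alternatives were other normalizations, offsets, detection limits, filters and probes, other measures of spread, and leaving out each array.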

Additional observations from a re-analysis of the deposited data

Results flagged for a closer look

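Of 78 genes named and checked, 9 had 1 MEG3-OFF array far from the other 4, its gap to the nearest array being more than 0.71 of the whole range of the 5 values (Dixon's limit for 5 samples). Chance alone gives such a result in about 1 in 20 groups, and these genes had been picked partly for wide gaps.

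NTU1-8 was the low array for ZNF22, with a gap of 0.757 of the range (6.97 against 9.48 to 10.28), for MLKL at 0.749 (6.24 against 8.23 to 8.90) and for CGAS at 0.778 (4.59 against 6.05 to 6.47). NTU1-5 was the high array for EPAS1 at 0.841 (7.14 against 4.53 to 4.94). NTU1-9 was the high array for RAB17 at 0.736 (10.26 against 8.20 to 8.74) and for MMP10 at 0.916 (6.44 against 4.95 to 5.08). NTU1-7 was the high array for H2BC8 at 0.81 (6.75 against 4.91 to 5.26), for H2BC11 at 0.718 (6.44 against 4.93 to 5.36) and for CXCL5 at 0.792 (8.99 against 7.24 to 7.60). CGAS in NTU1-8, EPAS1 outside NTU1-5, MMP10 outside NTU1-9 and both histone genes outside NTU1-7 were not detected, so for these the low side is a bound only.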

How the results depend on the processing

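Limits. Each subline is 1 array, so no count among the 5 arrays has an error of its own. Values within about 1 unit of background rest on the offset: with an offset of 50 the counts became 357 genes with a range of at least 1, 28 with a range of at least 2, 17 on in some sublines only and 25 outside the other 4 arrays, all 28 and all 17 being among the genes found with an offset of 16. On the deposited normalized values, which carry the background, they were 257, 22, 13 and 17. Leaving out 1 array gave 504 to 840 genes with a range of at least 1, 45 to 66 with a range of at least 2, 57 to 72 on in some sublines only and 69 to 117 outside the others. The other alternatives kept all these counts within 1.5 times, and the median of chromosome 19 in NTU1-5 stayed between -0.15 and -0.11.

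In the comparison of spread, squared deviations and the trend and robust settings of limma each called 0 genes larger and 0 smaller in MEG3-OFF, and leaving out 1 of the 9 arrays gave 1 to 37 larger and 0 to 8 smaller. Against 2 smaller, there was 1 on the deposited normalized values, 1 with an offset of 50, 1 with a detection p under 0.05 and 8 with arrays scaled to 1 median; the cause was not tested. Leaving NTU1-5 out of the lists, an alternative chosen after seeing the data, left 4 of 8 amnion and trophoblast genes with a range of at least 1. No paired analysis was possible because the MEG3-OFF numbers 5 to 9 and the MEG3-ON numbers 1 to 4 share none.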
